A study of Mus musculus with 30 samples.

Results

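The comparison asked whether forced Pdx1 and loss of beta-cells act on alpha-cell transcripts separately or depend on each other. Of the 30 bulk RNA-seq libraries of the series, 23 were chosen by their labels and fall into a factorial of 4 groups, all of cells sorted from mouse islets by fluorescence. The alpha group (8 libraries) came from 3-month-old Glucagon-Venus mice. The alpha DT group (4 libraries) came from Glucagon-Venus; RIP-DTR mice given diphtheria toxin at 2 months and collected 30 days later. The alpha Pdx1 group (5 libraries) came from mice of the same age that combined Glucagon-rtTA with TetO-Cre, an R26YFP reporter and the CAG-Pdx1 transgene. The alpha Pdx1 DT group (6 libraries) added RIP-DTR to that genotype, with toxin at 2 months and the same interval of 30 days. The insulin promoter drives the toxin receptor, so the receptor and the toxin come together in both ablated groups. The Venus or YFP reporter goes with the absence or presence of Pdx1, and Glucagon-rtTA and TetO-Cre go with its presence. The labels do not say that libraries of a group came from separate animals, so p-values measure the spread between these libraries, which may be technical.

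Pdx1 is a homeodomain factor that maintains insulin transcription and identity in mature beta-cells and is silent in mature alpha-cells. Near-total loss of beta-cells is known to lead some adult mouse alpha-cells to start making insulin. The 2 manipulations are additive on the log2 scale when the ablation effect is the same with and without Pdx1, so that their fold changes multiply. The interaction reported here is the ablation effect with Pdx1 (alpha Pdx1 DT minus alpha Pdx1) minus the ablation effect without it (alpha DT minus alpha). It is 0 for an additive gene, and 1 means that the combined group stands at 2 times the additive value.

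Some libraries stood apart before any comparison. Pdx1 itself lay between 3.66 and 5.61 in 7 of the alpha libraries and at 11.23 in alpha 8, on the log2 scale of the deposited values. It lay between 11.53 and 12.59 in 5 of the alpha Pdx1 DT libraries and at 5.51 in alpha Pdx1 DT 5. These 2 libraries go against their labels, and many of the results below are also given without them. Alpha Pdx1 5 had Pdx1 at 8.61, against 10.78 to 11.83 in the other alpha Pdx1 libraries. An alternative fit left out this library as well. Alpha Pdx1 DT 5 also correlated with alpha 4 at 0.993 over 17775 genes, the highest of 253 pairs of libraries, against 0.968 for the next. Gcg, the glucagon gene that defines alpha-cells, took the highest value of the library (22.57) in all 4 alpha DT libraries and was at least 18.63 in every library. The values had been put on a common distribution, so the most abundant transcripts take fixed values by rank and read depth is unknown.

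No gene passed the interaction test. Of 16237 genes tested, 0 (0.0%) had a limma adjusted p under 0.05, and the smallest adjusted p was 0.470. At an unadjusted p under 0.05 there were 1054 genes (6.49%), of which 586 (3.61%) had a positive interaction and 468 (2.88%) a negative one. Without alpha 8 and alpha Pdx1 DT 5 the count past the adjusted threshold was again 0 (0.0%), with a smallest adjusted p of 0.694 and 1149 genes (7.08%) at the unadjusted level. The median interaction over all genes was 0.014, and 8279 of the 16237 values were positive.

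A p that misses the threshold does not show that effects add up, so the width of the intervals was read instead. For 3976 genes (24.5%) the 95% interval of the interaction lay within -1 and 1, that is within a factor of 2 of additivity. The share rose with the level of the gene. It was 0 of 4061 genes in the lowest of 4 bins of mean level, 209 of 4058 (5.15%) in the second, 1370 of 4059 (33.8%) in the third and 2397 of 4059 (59.1%) in the highest. The median standard error fell over the same bins from 0.907 through 0.548 and 0.397 to 0.322. For weakly expressed genes a departure of 2-fold was thus not detectable with these libraries. Without the 2 libraries that go against their labels, 3550 genes had an interval within these bounds. With the ribosomal RNA gene Rn18s-rs5 as a covariate the number was 1991.

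The component effects gave the sizes that were compared. Ablation without Pdx1 changed 170 genes (1.05% of those tested; 93 higher and 77 lower) and ablation with Pdx1 changed 573 (3.53%; 354 higher and 219 lower). Pdx1 without ablation changed 441 genes (2.72%; 263 higher and 178 lower), and Pdx1 after ablation changed 85 (0.523%; 71 higher and 14 lower). Leaving out the 2 libraries gave 180, 1364, 853 and 587 genes in the same order. A larger count in one arm than in the other does not show an interaction, which was tested directly above. The counts rested on single libraries. Ablation without Pdx1 gave 53 without alpha DT 2, 464 without alpha DT 4, 272 without alpha Pdx1 DT 6, and 70, 89, 100, 81 and 84 without alpha 2, 3, 4, 6 and 8. Ablation with Pdx1 gave 78, 235, 108, 1474 and 106 without alpha Pdx1 DT 1, 2, 4, 5 and 6, and 997, 26, 98, 12 and 36 without alpha Pdx1 1, 2, 3, 4 and 5. Pdx1 without ablation gave 32, 104 and 28 without alpha Pdx1 2, 3 and 4, 118, 161, 255, 148 and 194 without alpha 3, 4, 5, 6 and 7, and 701 without alpha Pdx1 DT 5. Pdx1 after ablation gave 33, 27, 44, 21, 521 and 32 without alpha Pdx1 DT 1 to 6, 25 without alpha DT 3 and 193 without alpha 8.

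The 2 ablation effects share no library, so their likeness over genes can be described directly. Across the 16237 genes they correlated at r = 0.518, and at 0.565 without the 2 libraries. Genes in one library are not independent replicates, and the 2 effects share the strain difference of RIP-DTR. Of the genes past the threshold, 45 were called in both arms, which is 26.5% of the 170 and 7.85% of the 573. All 45 had the same sign, 39 higher and 6 lower. Among the 170 genes called without Pdx1, 160 had the same sign with Pdx1, and among the 573 called with Pdx1, 538 had the same sign without it. Over all genes tested the sign was the same in 67.62%. With 1 library left out, the number called in both ranged from 4 without alpha Pdx1 4 to 100 without alpha Pdx1 DT 5. It was 0 with Rn18s-rs5 as a covariate, where r was 0.305, 3 with leukocyte markers as a covariate, 19 among genes with a mean of at least 8, 22 without a mean trend, 95 with library weights, and 145 with all 30 libraries, of which 144 had the same sign.

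**Figure D1:**
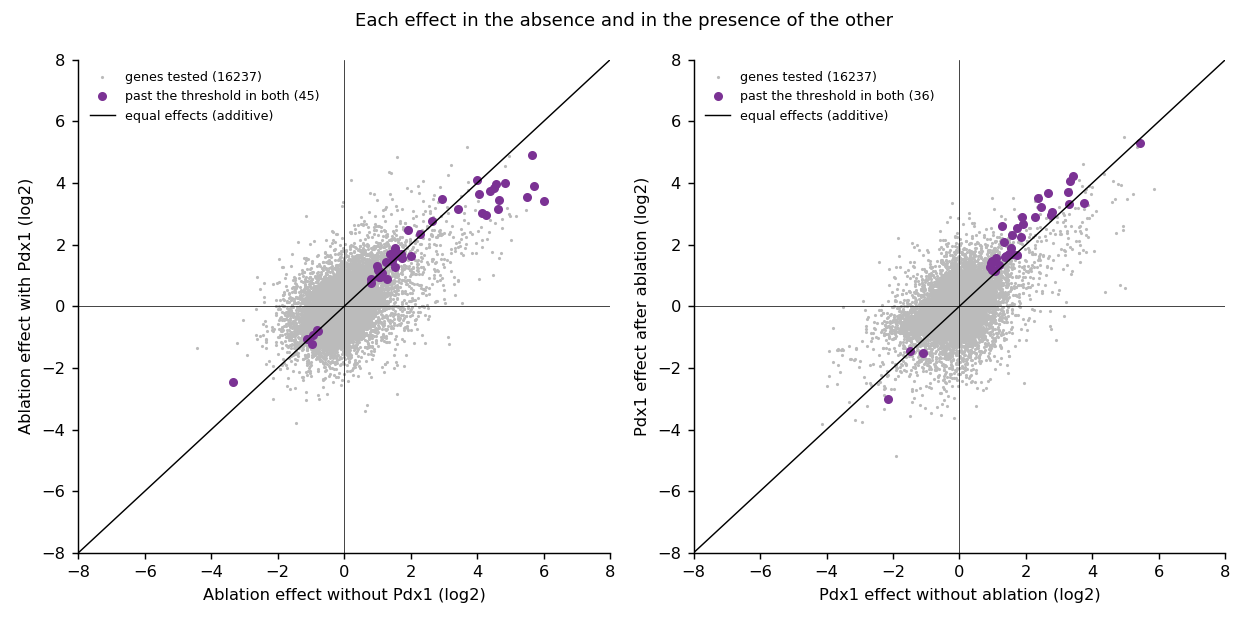
Each grey point is 1 of the 16237 genes tested. The left plot sets the ablation effect with Pdx1 (log2) against that without it, and the right plot sets the Pdx1 effect after ablation against that without ablation. The line marks equal effects, and purple points passed a limma adjusted p of 0.05 in both, 45 genes on the left and 36 on the right, all with the same sign in both.

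Endocrine and signalling genes were among those that changed alike with and without Pdx1. Nkx2-2, a homeodomain factor of all islet endocrine cells, rose with ablation by 1.03 without Pdx1 and by 1.17 with it (limma adjusted p = 0.043 and 0.021). Its values ran from 10.70 to 12.54 in alpha and from 12.45 to 13.15 in alpha DT. They ran from 10.91 to 11.53 in alpha Pdx1 and from 12.03 to 12.78 in alpha Pdx1 DT. The groups overlapped slightly without Pdx1 and did not overlap with it. Vamp2, a vesicle membrane protein of the exocytosis machinery, rose by 1.38 and 1.69. Prkaca, a catalytic subunit of the cyclic AMP dependent kinase, rose by 1.54 and 1.82. With 1 library left out the call of Nkx2-2 was lost in 12 of 23 fits without Pdx1 (adjusted p up to 0.131 without alpha DT 2) and in 4 with it. The interactions of these genes were 0.15 ± 0.36 (SE), 0.31 ± 0.42 and 0.28 ± 0.47.

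Fos, an immediate early subunit of the AP-1 factor, was the clearest abundant gene at the additive value. Its level was 14.32, 14.17, 13.63 and 14.10 in the alpha DT libraries against 14.40 to 15.86 (median 15.01) in alpha. It was 14.92, 15.62, 15.34, 15.40 and 15.49 in alpha Pdx1 against 14.20 to 15.14 (median 14.27) in alpha Pdx1 DT. The ablated libraries were lower in both arms, and in the Pdx1 arm only alpha Pdx1 DT 5, at 15.14, overlapped the other group. Ablation lowered Fos by 0.95 in each arm (log2 effects -0.95 and -0.95, limma adjusted p = 0.033 and 0.026). The interaction was 0.01 ± 0.31, with a 95% interval from -0.63 to 0.64. The Krüppel-like factor gene Klf11 rose by 1.13 and 1.09, with an interaction of -0.04 ± 0.40. Litaf (1.70 and 1.71), Shank1 (1.45 and 1.47) and Clip1 (-0.80 and -0.81) had interactions of 0.01 ± 0.56, 0.02 ± 0.48 and -0.01 ± 0.28. These 5 were taken as the named genes nearest to additivity, so their small interactions were set by that choice. Each of these calls was lost on leaving out at least 6 of the 23 libraries in turn, with adjusted p up to 0.162 for Clip1 without alpha DT 2. Without the 2 libraries that of Litaf without Pdx1 was lost (adjusted p = 0.0502).

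**Figure D2:**
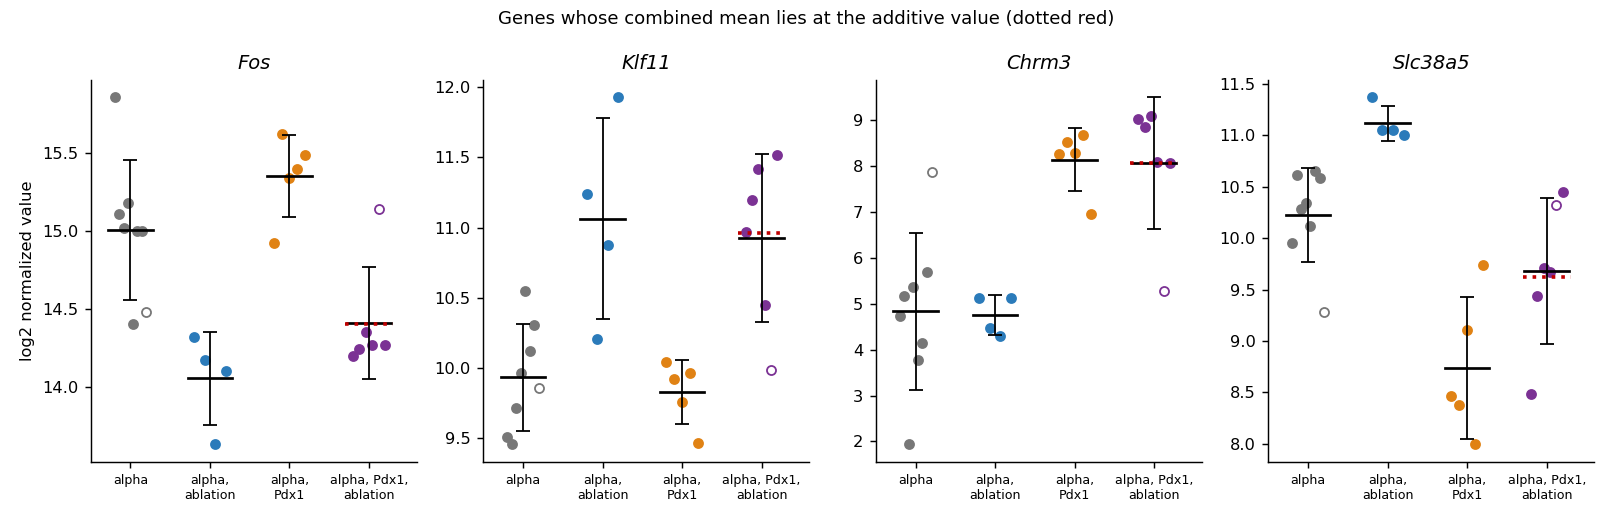
Points are the log2 normalized values of single libraries in the 4 groups for Fos, Klf11, Chrm3 and Slc38a5, and black bars are the group mean and SD. The dotted red line is the additive value, alpha DT plus alpha Pdx1 minus alpha, and the open points are alpha 8 and alpha Pdx1 DT 5. For all 4 genes the combined mean lies at the dotted line.

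Several genes known from nerves and macrophages were among those called in both arms with large effects. The names in this paragraph were picked after their values were seen, and how many of the 45 genes belong to such cells was not counted. The largest effect without Pdx1 was that of Il22ra2, a soluble receptor that binds interleukin 22, at 6.02 and 3.40, and its call with Pdx1 was lost in 13 of the 23 fits with 1 library left out. Vip and Npy, neuropeptides of autonomic nerves, Slc18a3, the vesicular acetylcholine transporter, Slc5a7, the choline transporter, and Prph, an intermediate filament of peripheral neurons, were all higher in both ablated groups, though their calls with Pdx1 were lost in 2 to 8 of those fits. Vip was at 5.22 to 11.63 in alpha DT against 1.23 to 7.39 in alpha, and at 4.45 to 9.55 in alpha Pdx1 DT against 1.72 to 3.68 in alpha Pdx1. The highest alpha value belonged to alpha 4, at 7.39, beside 7.15 in alpha Pdx1 DT 5. The ablation effects on Vip were 5.66 and 4.92, and those on Slc18a3 were 4.63 and 3.15. Timd4 and Siglec1, both of tissue macrophages, and Csf1r, the receptor that macrophages need, rose by 5.71 and 3.90, by 4.26 and 2.96, and by 4.38 and 3.74. The calls with Pdx1 were lost in 8, 12 and 9 of the 23 fits with 1 library left out, and that of Csf1r without Pdx1 in 8. Their interactions were -1.80 ± 1.45, -1.31 ± 1.17 and -0.64 ± 1.43, and each 95% interval included 0. In bulk samples fewer cells of a type and less RNA per cell cannot be told apart. Of the 45 genes called in both arms, 19 had a mean level under 7, and 15 of these had the smaller effect with Pdx1, against 11 of the 26 at higher levels. Smaller effects with Pdx1 are favoured by the choice of genes, because ablation without Pdx1 had fewer calls. Errors were also larger at low levels, so the count shows no damped response.

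The 2 Pdx1 effects, which also share no library, correlated at r = 0.471 over genes, and at 0.548 without the 2 libraries. Both share the difference in reporter, rtTA and Cre transgenes that goes with Pdx1. There were 36 genes called in both, 8.16% of the 441 and 42.4% of the 85, and all 36 had the same sign, 33 higher and 3 lower. Of these, 32 had the larger effect after ablation, which choosing genes past the threshold in the comparison with fewer calls favours. Over all genes tested the sign of the Pdx1 effects was the same in 59.85%. Without the 2 libraries 317 genes were called in both, all with the same sign, and they included all 36. With 1 library left out, the number called in both ranged from 1 without alpha Pdx1 4 to 216 without alpha Pdx1 DT 5. It was 0 with Rn18s-rs5 as a covariate, where r was 0.355, 10 with library weights, 12 with acinar markers, 162 with leukocyte markers, 107 with all 30 libraries and 346 without alpha 8, alpha Pdx1 DT 5 and alpha Pdx1 5.

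Chrm3, the muscarinic acetylcholine receptor through which acetylcholine raises insulin release, stood at the additive value among genes that rose with Pdx1. Its level was 8.26, 8.53, 8.29, 8.67 and 6.96 in alpha Pdx1 against 1.94 to 7.87 (median 4.95) in alpha. It was 5.29 to 9.08 (median 8.47) in alpha Pdx1 DT against 5.13, 4.47, 4.30 and 5.12 in alpha DT. The only alpha library above 6 was alpha 8 and the only alpha Pdx1 DT library below 8 was alpha Pdx1 DT 5. The Pdx1 effect was 3.31 in each ablation state (limma adjusted p = 0.012 and 0.044), and the interaction was 0.00 ± 1.02, an error that leaves room for a departure of 2 on the log2 scale. Without the 2 libraries it was 0.12 ± 0.76. Slc38a5, an amino acid transporter of alpha-cells, fell by 1.49 with Pdx1 without ablation and by 1.44 after it, with an interaction of 0.05 ± 0.45. Ablation moved it the other way, by 0.89 and 0.94, which did not pass the threshold. Kcnip4, a partner of voltage-gated potassium channels, rose by 1.74 and 1.66, and the sodium-calcium exchanger gene Slc24a2 rose by 1.06 and 1.16. The islet glucose-6-phosphatase gene G6pc2 rose by 3.43 and 4.22. The calls after ablation were lost in 15 to 19 of the 23 fits with 1 library left out for Chrm3, Slc38a5, Kcnip4, B3galt5 and Slc24a2, where the adjusted p reached 0.163 for Slc24a2 without alpha DT 3. That of G6pc2 was lost in 21 of them.

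The hormone genes were too variable for an interaction of their size to be read. Ins1 averaged 13.69 ± 2.18 (SD) in alpha, 13.26 ± 1.21 in alpha DT, 17.40 ± 1.49 in alpha Pdx1 and 17.86 ± 2.84 in alpha Pdx1 DT. Its interaction was 0.90 ± 1.83 (SE), and 1.39 ± 1.03 without the 2 libraries. Ins2 gave 0.00 ± 1.68, and 0.26 ± 0.80 without them. Pdx1 itself gave -0.20 ± 1.83, and 0.04 ± 0.80 without them. Gcg gave -0.06 ± 1.09, a difference between rank-set values.

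Iapp, the islet amyloid polypeptide gene co-secreted with insulin, had the most negative interaction of Pdx1, Gcg, Ins1, Ins2 and Iapp. Its level was 18.63, 19.27, 19.27, 18.27 and 17.92 in alpha Pdx1 and 12.13 to 18.63 (median 17.80) in alpha Pdx1 DT, against 14.86, 15.75, 13.84 and 14.03 in alpha DT and 12.00 to 17.92 (median 13.25) in alpha. The extremes of alpha and alpha Pdx1 DT that cross into the other range were again alpha 8 and alpha Pdx1 DT 5. The interaction was -2.45 ± 1.51, with an interval from -5.60 to 0.70 (limma adjusted p = 0.795). Without the 2 libraries it was -2.05 ± 0.62 (limma adjusted p = 0.703). Iapp, like Ins1 and Ins2, took values fixed by rank, such as 18.63 and 19.27. Its additive value of 19.53 lay above every value it took in the 23 libraries, though within the scale, where Ins2 reached 20.54 in alpha Pdx1 DT 1. The departure is a difference between rank-set values, so its size is uncertain. Among the 23 beta-cell identity genes tested, 2 (against 6.49% of all genes) had an unadjusted p under 0.05, both positive: the glucose transporter gene Slc2a2 (1.92 ± 0.87) and the fatty acid receptor gene Ffar1 (1.90 ± 0.87).

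Notch1, Junb and Akt1 had been singled out from earlier results of these data, so their values describe them and are no independent evidence. The mean of each was lower in alpha Pdx1 than in alpha, called for Notch1 and Junb but not for Akt1 (that of Junb was lost in 6 of the 23 fits with 1 library left out, up to a limma adjusted p of 0.096 without alpha Pdx1 4), and the combined group stood above the additive value. The plot of values by library shows the 4 groups of each.

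**Figure D3:**
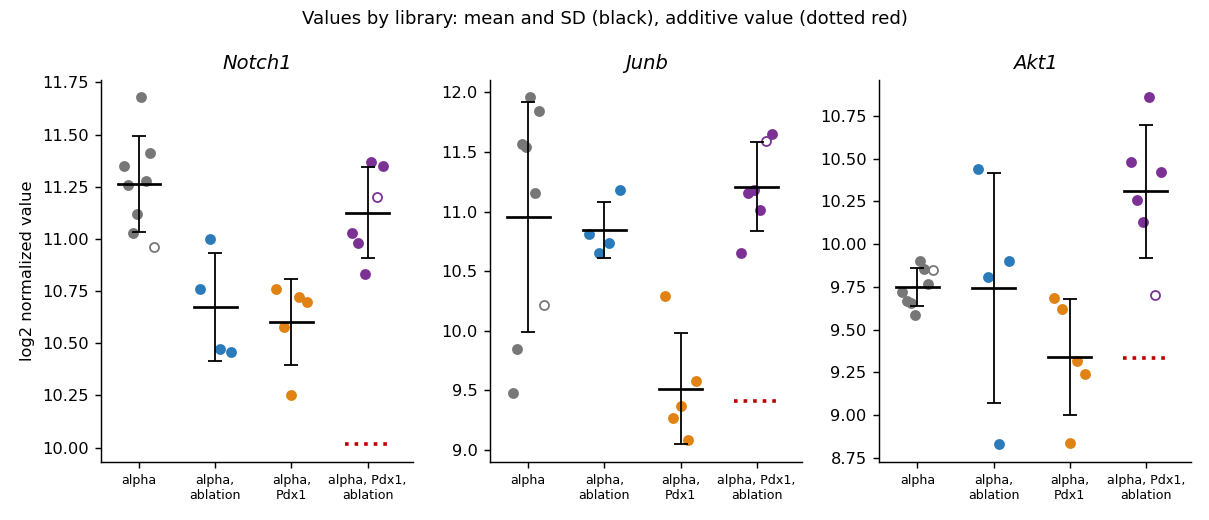
Points are the log2 normalized values of single libraries for Notch1, Junb and Akt1, with the group mean and SD in black and the additive value as a dotted red line. Open points are alpha 8 and alpha Pdx1 DT 5. For Notch1 and Akt1 all 6 alpha Pdx1 DT libraries lie above the dotted line at 10.02 and 9.33, and for Junb all 6 lie above 9.41.

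Notch1, a receptor of the Notch pathway, lies on chromosome 2 at 26457903 to 26516663 on the minus strand (GRCm38, GENCODE). Ligands on a neighbouring cell trigger its cleavage, and the freed inner part then acts with Rbpj on target genes of the Hes and Hey families. Its level was 10.96 to 11.68 (median 11.27) in alpha and 10.76, 11.0, 10.47 and 10.46 in alpha DT. It was 10.76, 10.58, 10.25, 10.72 and 10.70 in alpha Pdx1 and 10.83 to 11.37 (median 11.11) in alpha Pdx1 DT. Each manipulation alone went with lower values, and the groups with both or neither were alike in range. The effect of ablation was -0.59 without Pdx1 and 0.52 with it, and neither passed the threshold (limma adjusted p = 0.094 and 0.079). The effect of Pdx1 was -0.66 without ablation (limma adjusted p = 0.030, lost in 8 of the 23 fits with 1 library left out, up to 0.106 without alpha Pdx1 3) and 0.45 after it (adjusted p = 0.265). The interaction was 1.11 ± 0.25, with an interval from 0.60 to 1.62 (limma adjusted p = 0.470). It was 1.14 ± 0.26 without the 2 libraries, 1.02 to 1.22 with any 1 library left out, and 1.02 ± 0.31 with Rn18s-rs5 as a covariate.

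In the Notch pathway list 25 of 33 genes were tested, and 0 passed the interaction threshold. At the unadjusted level 3 were positive and 0 negative (3.61% and 2.88% of all genes): Notch1, the target Heyl (3.47 ± 1.14) and the regulator Dtx1 (1.64 ± 0.64). The additive value of Heyl was 0.57, below the lowest value in the 23 libraries (0.76), so its departure could only be positive and its size cannot be read. Heyl was weakly expressed, at 2.96 to 7.18 in alpha, 2.67 to 5.54 in alpha DT, 1.43 to 3.35 in alpha Pdx1 and 1.97 to 6.15 in alpha Pdx1 DT. Its fall with Pdx1 without ablation was called (log2 effect -3.49, limma adjusted p = 0.016, up to 0.053 without alpha Pdx1 4). The median interaction of the list was 0.11, with 14 of 25 values positive, against 0.014 over all genes. The mean level of the list had an interaction of 0.39 ± 0.14, and 0.40 ± 0.14 without the 2 libraries. That mean includes Heyl, whose size cannot be read, and Notch1, which was singled out from these data, so it is no evidence for the pathway. The median of the list ranged from -0.06 to 0.26 over the alternative settings and was negative in 3 of 35.

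Junb, an AP-1 subunit, lies on chromosome 8 at 84974484 to 84978718 on the minus strand. Its level was 9.48 to 11.96 (median 11.35) in alpha and 10.81, 10.65, 10.74 and 11.18 in alpha DT. It was 10.29, 9.27, 9.37, 9.08 and 9.58 in alpha Pdx1 and 10.65 to 11.65 (median 11.17) in alpha Pdx1 DT. The Pdx1 groups with and without ablation did not overlap, while the alpha group overlapped both. Ablation raised Junb by 1.69 with Pdx1 (limma adjusted p = 0.021, up to 0.071 without alpha Pdx1 4) and its effect without Pdx1 was -0.11 (adjusted p = 0.912). The interaction was 1.80 ± 0.51, with an interval from 0.75 to 2.85 (adjusted p = 0.751), and 1.83 ± 0.52 without the 2 libraries.

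The level of Rn18s-rs5, a ribosomal RNA gene, moved with Junb between libraries. It was 18.27, 17.09, 17.31, 16.98 and 16.90 in alpha Pdx1 and 19.87 to 22.57 (median 20.54) in alpha Pdx1 DT, groups that did not overlap. It was 17.68 to 20.54 in alpha and 20.54, 19.87, 19.27 and 20.54 in alpha DT. The alpha libraries with the lowest Junb, alpha 1, 2 and 8 at 9.48, 9.85 and 10.22, also had the lowest Rn18s-rs5, at 17.68, 17.92 and 18.63. The interaction of Rn18s-rs5 was 2.92 ± 0.82. Its levels too were fixed by rank, up to the highest value of the library (22.57). Neither this size nor an adjustment for Rn18s-rs5 is thus exact. With Rn18s-rs5 as a covariate the Junb interaction was 0.36 ± 0.47 and that of Akt1 was 0.68 ± 0.43. In that fit 0 genes were called for ablation with Pdx1 or for Pdx1 without ablation. Since this level differs between the groups themselves, its part cannot be told apart from theirs.

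Egr3, Fosb and Btg2 stood with Junb in the AP-1 and immediate early list, while Fos did not. All 24 genes of the list were tested, 0 passed the interaction threshold, and 4 were positive and 0 negative at the unadjusted level (3.61% and 2.88% of all genes). Egr3, a zinc finger factor induced by signalling, was at 3.92 to 7.01 in alpha, 3.32 to 6.30 in alpha DT, 4.92 to 6.27 in alpha Pdx1 and 6.70 to 8.90 in alpha Pdx1 DT. Its interaction was 2.40 ± 0.78. Fosb gave 0.94 ± 0.44 and Btg2 gave 0.66 ± 0.24, against 0.01 ± 0.31 for Fos. The median of the list was 0.56, with 18 of 24 positive, and ranged from 0.35 with Rn18s-rs5 as a covariate to 0.67 without alpha DT 1. The mean level of the list had an interaction of 0.47 ± 0.30. Junb, singled out from these data, is in the list, and its members are not independent. These values are thus no evidence for the list.

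Akt1, a kinase that relays insulin and growth factor signals, lies on chromosome 12 at 112653821 to 112674884 on the minus strand. Its level was 9.59 to 9.90 (median 9.74) in alpha and 10.44, 9.81, 8.83 and 9.90 in alpha DT. It was 9.69, 9.62, 8.84, 9.32 and 9.24 in alpha Pdx1 and 9.70 to 10.86 (median 10.34) in alpha Pdx1 DT. The alpha DT values spread over most of the range of the other groups, and the Pdx1 groups with and without ablation came close and did not overlap. Ablation raised Akt1 by 0.97 with Pdx1 (limma adjusted p = 0.030, lost in 8 of the 23 fits with 1 library left out, up to 0.087 without alpha Pdx1 5) and its effect without Pdx1 was -0.01. The interaction was 0.97 ± 0.34 (adjusted p = 0.751), 1.08 ± 0.35 without the 2 libraries and 0.67 without alpha DT 3. Of the 36 insulin and IGF signalling genes tested, 0 passed the threshold, and the median interaction was 0.15. In this list 18 of 36 genes had an interval within -1 and 1, against 24.5% of all genes and 59.1% of those in the highest bin of level.

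Ion channel genes had the next highest median after the AP-1 list among the lists of signalling and cell function. The excitability channels form the potassium, calcium and sodium currents that shape hormone release. Of 26 tested, 0 passed the threshold, 3 were positive and 0 negative at the unadjusted level, against 3.61% and 2.88% of all genes. Of the 26 values 21 were positive, against 51.0% over all genes. The median was 0.45, with a range of 0.25 to 0.51 over the alternatives, and the mean level of the list had an interaction of 0.46 ± 0.16. Genes measured in the same libraries are not independent, and the list was chosen with earlier results of these data known. The count of signs and the list mean are thus no evidence for the channels. The small-conductance potassium channel gene Kcnn2 (1.56 ± 0.66) was at 7.94 to 10.15 in alpha and 7.24, 6.31, 6.75 and 5.36 in alpha DT, groups that did not overlap. It was 7.54, 8.93, 8.52, 7.42 and 8.63 in alpha Pdx1 and 5.89 to 9.23 (median 6.92) in alpha Pdx1 DT, where the highest value belonged to alpha Pdx1 DT 5. Ablation lowered Kcnn2 by 2.64 without Pdx1 (log2 effect -2.64, limma adjusted p = 0.0071). The effect with Pdx1 was -1.08 (adjusted p = 0.161), and without the 2 libraries that go against their labels it was called, at -1.49 (limma adjusted p = 0.020). The potassium channel gene Kcnh2 gave 1.02 ± 0.34 and the L-type calcium channel gene Cacna1c gave 0.68 ± 0.27. The names beside Kcnn2 here, and those in the next paragraph, were picked for an unadjusted p under 0.05 after their values were seen.

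Members of other signalling and secretory lists lay on both sides of 0. The counts at the unadjusted level in this paragraph stand against 3.61% of all genes positive and 2.88% negative. In the cyclic AMP and MAP kinase list of 32 tested genes, the kinase gene Mapk3 (0.99 ± 0.34) and the adenylate cyclase gene Adcy6 (0.76 ± 0.34) were positive. The inhibitors Dusp6, a phosphatase of this kinase, and Spred1 were negative, at -1.67 ± 0.57 and -1.30 ± 0.47. The median of that list was 0.02. Of 27 hormone processing and granule genes, Chga (1.08 ± 0.38), a granule protein, and the exocytosis genes Stx1a (1.18 ± 0.55) and Unc13a (0.75 ± 0.35) were positive, and Scg2 (-1.08 ± 0.43), another granule protein, was negative. Of 25 unfolded protein response genes, the chaperone partner Dnajb9 (-1.15 ± 0.37) and the stress-induced Chac1 (-1.93 ± 0.80) were negative and 0 were positive. Dnajb9 averaged 12.12 in alpha, 11.98 in alpha DT, 13.33 in alpha Pdx1 and 12.03 in alpha Pdx1 DT. It rose with Pdx1 without ablation and fell with ablation given Pdx1 (limma adjusted p = 0.012 and 0.017). All calls in these 2 comparisons fell to 28 and 12 without alpha Pdx1 4, and to 0 in both with Rn18s-rs5 as a covariate. The calls of Dnajb9 itself with single libraries left out are not given here. Of 27 chromatin regulators, Dnmt3a (0.79 ± 0.29), a DNA methyltransferase, Tet3 (0.96 ± 0.44), which oxidises methylcytosine, and the deacetylase Hdac4 (0.97 ± 0.38) were positive and 0 were negative.

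Most functional lists had medians close to that of all genes. The respiratory chain (35 genes tested), mitochondrial ribosome (32), cytosolic ribosome (38), glycolysis and citrate cycle (28), Wnt (24), TGF-beta (22), interferon (19), cell cycle (22) and pan-endocrine (17) lists had medians from -0.10 to 0.15. Of these 9 lists, the mitochondrial ribosome had 2 positive and 1 negative gene at the unadjusted level, the respiratory chain had 1 negative gene and the other lists had 0. In the mitochondrial ribosome Mrpl41 fell with ablation without Pdx1 (log2 effect -1.69, limma adjusted p = 0.0074), and its effect with Pdx1 was -0.53. The Hedgehog list (6 genes tested) had a median of 0.39 and 0 genes at the unadjusted level. A median near 0 describes a list and does not bound its members.

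**Figure D4:**
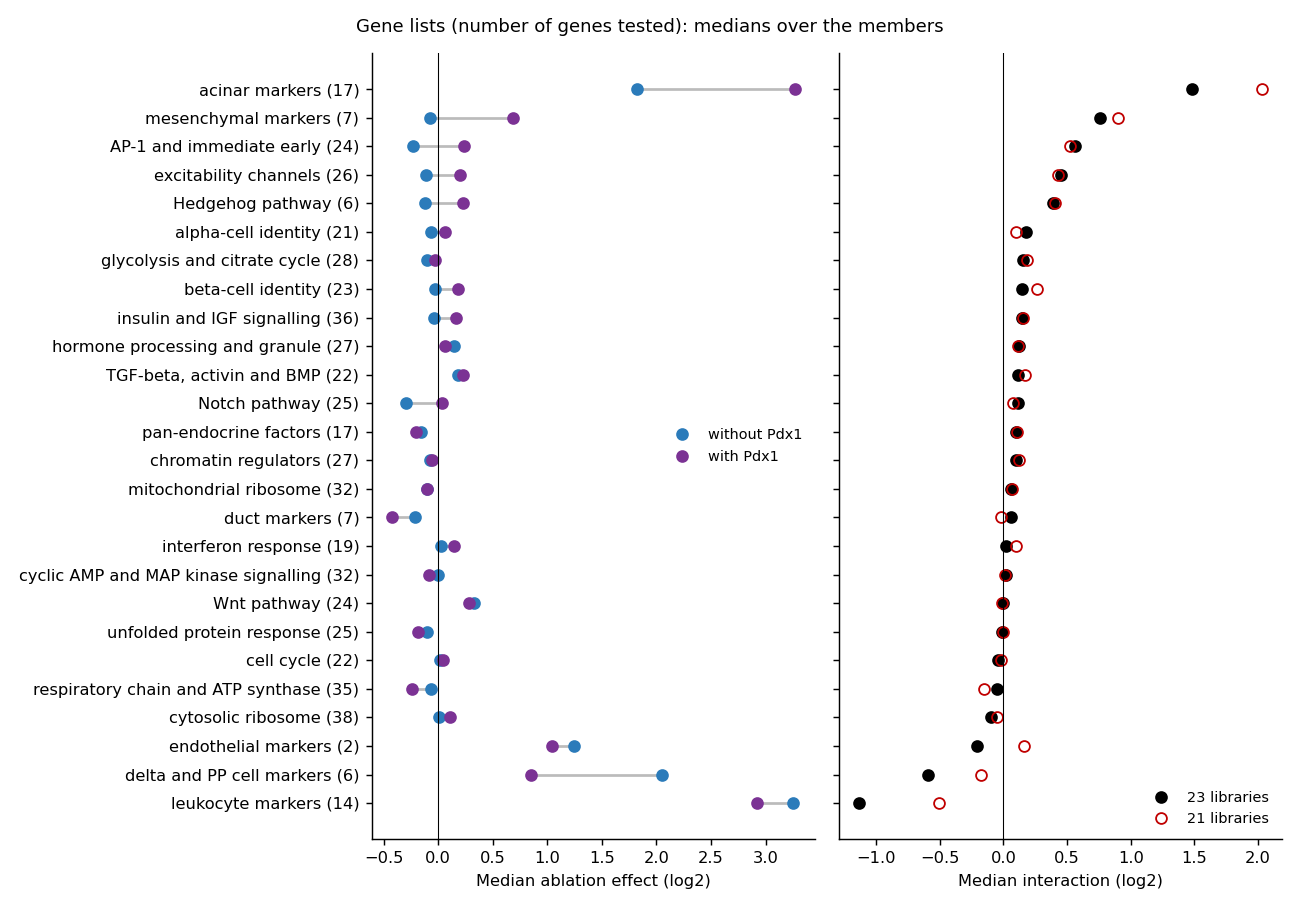
The left plot gives, for each gene list, the median log2 ablation effect over its tested members without Pdx1 (blue) and with it (purple). The right plot gives the median log2 interaction with all 23 libraries (black) and with 21 (open red). The leukocyte markers move from -1.13 to -0.51 between them, while the AP-1 list (0.56 and 0.52) and the channel list (0.45 and 0.43) hardly move.

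Leukocyte and acinar markers had medians farthest from 0 among the 26 lists, with wide errors. The 14 leukocyte markers had a median interaction of -1.13, and -0.51 without the 2 libraries, and the mean of the list gave -0.80 ± 1.33. Their mean level ran from 4.03 to 6.68 in alpha, 6.84 to 11.18 in alpha DT, 3.72 to 5.11 in alpha Pdx1 and 3.95 to 10.14 in alpha Pdx1 DT. Ablation raised 6 of the 14 without Pdx1 and 3 with it, where 1.05% and 3.53% of all genes were called. The median effects were 3.25 and 2.93. When the fit kept only genes with a mean of at least 8, the median interaction of the markers left was 0.22. That filter removed members of the list such as Itgam (mean level 3.25), so this is a median over fewer markers. The 17 acinar markers had a median of 1.48, and 2.03 without the 2 libraries, and their mean level spread from 6.41 to 12.85 in alpha and from 5.99 to 14.13 in alpha Pdx1 DT, so that the interaction of the list mean was 1.19 ± 2.50. The duct (7 genes tested), endothelial (2) and mesenchymal (7) markers had medians of 0.06, -0.21 and 0.76, and their list means gave -0.20 ± 0.26, -0.21 ± 0.79 and 0.58 ± 0.92. Without the 2 libraries the medians were -0.02, 0.16 and 0.90. The 6 delta and PP cell markers had a median of -0.59, and -0.18 without the 2 libraries. Ppy, the pancreatic polypeptide gene, gave -1.92 ± 0.76, with group means of 16.25, 18.37, 17.09 and 17.29 in alpha, alpha DT, alpha Pdx1 and alpha Pdx1 DT. Its values too were fixed by rank, with a median and a highest value of 17.68 in alpha Pdx1 DT. With the leukocyte markers as a covariate 0 genes passed the interaction threshold and the Notch1 interaction was 1.15 ± 0.24, and with the acinar markers it was 1.11 ± 0.25. With the leukocyte covariate 41 genes were called for ablation without Pdx1 and 4 with it, against 170 and 573. For Pdx1 without and after ablation 659 and 616 were called, against 441 and 85. The leukocyte markers differed between the groups themselves, so these counts cannot tell their part from that of ablation. The part of these cells in the results was not tested.

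The genes with the smallest unadjusted p were spread over unrelated functions and all had a limma adjusted p of 0.470. They were picked after their values were seen. Hip1r, an adaptor of clathrin and actin, was at 10.07 to 10.61 in alpha and 9.22, 9.66, 9.80 and 9.21 in alpha DT. It was 10.62, 10.11, 10.15, 10.27 and 9.87 in alpha Pdx1 and 10.14 to 10.96 in alpha Pdx1 DT. Only the alpha DT group stood below the rest, and the interaction was 1.23 ± 0.28. Pmp22, a membrane protein known from myelin, was at 8.61 to 9.94 in alpha, 10.85, 9.95, 11.07 and 10.43 in alpha DT, 8.28, 8.57, 9.64, 8.96 and 9.65 in alpha Pdx1 and 7.23 to 9.12 in alpha Pdx1 DT. Here the alpha DT group stood above the rest, narrowly above the highest alpha library, and the interaction was -2.03 ± 0.46. Lrp1, a receptor for many ligands, Psmd13, a proteasome subunit, and Ffar2, a receptor for short fatty acids, gave 1.14 ± 0.26, 1.38 ± 0.33 and 1.92 ± 0.45. The antiviral sensor regulator Dhx58 gave -2.80 ± 0.65 and Basp1 gave -1.69 ± 0.39. Of these 7 genes, 0 changed sign under any alternative tried, which choosing the smallest p in the same libraries favours.

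**Figure D5:**
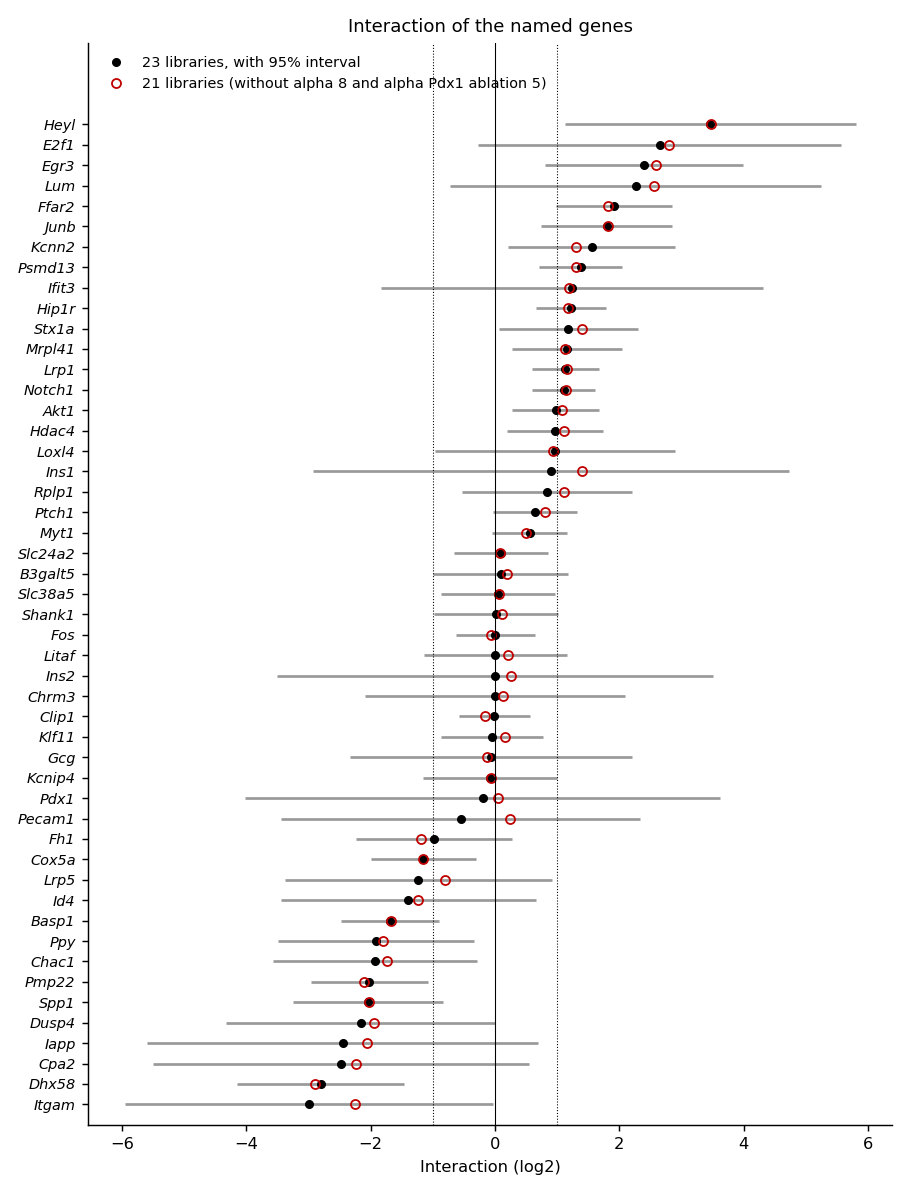
Black points are the interactions (log2) of the 49 named genes in the fit of 23 libraries, with 95% intervals as grey lines. Open red points are the values with 21 libraries, and dotted lines mark -1 and 1. The intervals of Ins1, Ins2 and Pdx1 are among the widest, while those of Notch1, Hip1r and Lrp1 lie above 0. Notch1, Hip1r and Lrp1 are among the genes of smallest p, so intervals without 0 were set by that choice. Each had a limma adjusted p of 0.470.

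Most genes at the unadjusted level had ablation effects of opposite sign in the 2 arms, a pattern that choosing on the contrast favours. Of the 586 positive genes, 508 had a negative ablation effect without Pdx1 and 536 a positive one with it. Of the 468 negative genes, 407 had a positive ablation effect without Pdx1 and 439 a negative one with it. In the unlogged values the departures of Notch1, Junb and Akt1 kept their sign, with the combined group above the sum of the separate effects by 1.61, 3.15 and 0.86 on the log2 scale.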

How the data were processed

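Bulk RNA-seq of sorted islet cells was analysed in 23 of 30 libraries, grouped by their labels. The authors deposited 1 table of normalized values on a log2 scale for 17775 genes. GSNAP and GRCm38 are named in the submitters' processing notes. The aligner version, annotation and counting method are not given in the sources used here. Values are tied by rank across libraries, so raw depth is unknown and no count test, as first planned, was applied. Gene names that are numbers (137, with the look of dates) were kept and made unique.

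A gene was tested if 4 or more of the 23 libraries reached a value of 5 (16237 genes, with 1538 removed). One limma (3.58.1, R 4.3.3) model with 4 group means, a mean trend and robust variance gave each effect and the interaction, with Benjamini-Hochberg adjustment over all genes tested and a threshold of 0.05. Errors are SE unless SD is stated. The script was tested on simulated data. Tables and plots used Python 3.11.15, pandas 2.3.3, numpy 2.4.6 and matplotlib 3.10.9. Coordinates are from GENCODE on GRCm38. The promoter comparison was void, because RefSeq windows matched 10056 of the 16237 genes.

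Named genes were Notch1, Junb, Akt1, the hormone genes, the gene with the largest absolute interaction in each list where none was called, and the 5 genes nearest to additivity among those called in both ablation effects and in both Pdx1 effects. The 7 genes of smallest p and other list members were named after their values were seen. The members and gene lists were chosen with earlier results of these data known. Alternatives left out libraries, changed the filter, the variance model, the weights or the scaling, added covariates, or used all 30 libraries.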

Additional observations from a re-analysis of the deposited data

Results flagged for a closer look

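In groups of 4 to 10 libraries, 24 of 299 group values had 1 library far from the others of its group, where chance gives about 1 in 20. Alpha 8 accounted for 8 of them. It was at 20.54 for Gcg, 2.96 for Heyl, 17.92 for Iapp, 19.27 for Ins2, 11.22 for Kcnip4 and 11.23 for Pdx1. Its mean level was 12.68 for the alpha-cell identity list and 12.70 for the cytosolic ribosome list.

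Alpha Pdx1 DT 5 accounted for 9. It was at 5.29 for Chrm3, 15.14 for Fos, 12.13 for Iapp, 12.11 for Ins1, 12.77 for Ins2, 5.51 for Pdx1 and 15.69 for Ppy. Its mean level was 13.59 for the alpha-cell identity list and 8.61 for the beta-cell identity list.

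The others were spread over 6 libraries. Chrm3 was at 6.96 in alpha Pdx1 5, Loxl4 at 6.22 in alpha Pdx1 DT 4, Mrpl41 at 11.13 in alpha 7 and Slc38a5 at 11.37 in alpha DT 1. Alpha DT 4 was at 5.63 for Ifit3 and at 10.05 for the mean of the glycolysis and citrate cycle list. Alpha Pdx1 DT 6 was at 8.53 for the mean of the interferon response list.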

How the results depend on the processing

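Under all 36 alternatives tried, 0 genes passed the interaction threshold, with a smallest adjusted p of 0.115. The number of genes additive within 2-fold was 1991 with Rn18s-rs5 as a covariate. The Pdx1 interaction turned positive without alpha 8 and alpha Pdx1 DT 5 (0.044), with an offset of 32 (0.13), with leukocyte markers as a covariate (0.072) and on unlogged values (0.58), and ranged from -1.01 to 0.86 with 1 library left out. That of Gcg turned positive without these 2 libraries and alpha Pdx1 5 (0.31), with library weights (0.35) and with the Rn18s-rs5 covariate (0.50), and ranged from -0.61 to 0.41. That of Ins2 was -0.10 after cyclic loess and ranged from -0.72 to 0.98. With the Rn18s-rs5 covariate the values were -0.21 for Ins1, -0.21 for Ins2, -0.66 for Rplp1, 0.86 for Fh1 and -1.26 for E2f1. Pecam1 was 0.24 without the 2 libraries, 0.16 without the 3, and 0.0071 with leukocyte markers, and ranged from -1.26 to 0.012. The cause was not tested.

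Counts of called genes moved more. Ablation without Pdx1 (170) gave 538 with all 30 libraries, 62 with a mean of at least 8, 58 with Rn18s-rs5 and 41 with leukocyte markers. Ablation with Pdx1 (573) gave 1364 without the 2 libraries, 1539 with all 30, 222 without a trend, 3735 with library weights, 0 with Rn18s-rs5 and 4 with leukocyte markers. Pdx1 without ablation (441) gave 853 and 832 without the 2 and 3 libraries, 716 with all 30, 261 with a mean of at least 8, 242 without a trend, 3170 with weights, 0 with Rn18s-rs5 and 214 with acinar markers. Pdx1 after ablation (85) gave 587 and 599, 351 with all 30, 35 with a mean of at least 8, 14 with weights, 38 with Rn18s-rs5, 616 with leukocyte and 45 with acinar markers. Tested against a change of 1, each gave 0. With 1 library left out these counts ranged over 53 to 464, 12 to 1474, 28 to 701 and 21 to 521. No paired analysis was possible because the replicate numbers follow accession order and pair no libraries. Read depth is unknown, so its effect on weakly expressed genes was not tested.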
